A study of Mus musculus with 9 samples.

Results

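The integrated stress response was read in intestinal organoids through 10 genes, *Atf4*, *Ddit3*, *Trib3*, *Asns*, *Psat1*, *Slc7a11*, *Chac1*, *Sesn2*, *Ddit4* and *Ppp1r15a*. Each symbol was matched to an Ensembl mouse gene ID among the 54838 IDs of the expression files, and all 10 passed the filter on low values. Organoids, which are three-dimensional epithelial cultures, were grown from the small intestine, with crypts taken from mice of the genotype *Vil-CreERT2*;*Mettl3* fl/fl (C57BL/6 by the labels, and by the methods male and 2 to 4 months old). Every group therefore carried the floxed *Mettl3* alleles, which encode an RNA m6A methyltransferase, and a 4-OHT-inducible Cre under the epithelial villin promoter. EtOH is the vehicle of 4-OHT (4-hydroxytamoxifen, 500 nM, given for 2 days to delete *Mettl3*), and DMSO is the vehicle of Nec-1 (necrostatin-1, an inhibitor of the kinase RIPK1, present for 5 days). The concentration of Nec-1 was 5 µM by a figure legend and 10 µM by the methods. Bulk RNA-seq gave 7 libraries, 2 of EtOH DMSO, 2 of EtOH Nec-1, 2 of 4-OHT DMSO and 1 of 4-OHT Nec-1. The sources used here do not say how many mice or separate cultures these libraries came from, so p-values measure only the spread between libraries, which may be technical.

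As background, cells that lack amino acids or haem, sense double-stranded RNA or accumulate unfolded proteins in the endoplasmic reticulum (ER) phosphorylate the translation initiation factor eIF2 through 1 of 4 kinases. General translation then falls while the transcription factor ATF4 is translated more, so *Atf4* mRNA alone is not a measure of ATF4 protein. ATF4 acts with partners such as CHOP (*Ddit3*) on genes of amino acid synthesis, amino acid uptake and stress control, and GADD34 (*Ppp1r15a*) closes the loop by guiding a phosphatase to eIF2. In the intestinal epithelium this pathway is known for its part in secretory cells and in tissue repair.

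Values are FPKM, fragments scaled by transcript length and by the mapped total of the library, so that levels of different genes can be compared per length. FPKM summed to 450207 to 498712 per library and fragment counts are not known. *Mettl3* was at 2.70 and 2.71 FPKM (EtOH DMSO), 2.41 and 2.47 (EtOH Nec-1), 3.72 and 4.14 (4-OHT DMSO) and 3.36 (4-OHT Nec-1). The targeted gene was thus not lower in the libraries labelled 4-OHT, where it was higher by 0.41 ± 0.098 (log2, limma SE, adjusted p = 0.0231, and 0.0796 after median centring). A gene-level value does not separate the excised part from the rest of the transcript, and every direction below rests on the labels. Markers of epithelial cells were present, with 6 of 6 listed genes at 1 FPKM or more, and the 5 fibroblast markers summed to at most 0.137 FPKM in any library. Paneth cell markers (6 genes) summed to 6684 to 7142 FPKM (EtOH DMSO), 7581 to 7787 (EtOH Nec-1), 18394 to 18642 (4-OHT DMSO) and 13813 (4-OHT Nec-1). Stem cell markers (4 genes) summed to 36.8 to 40.4, 25.6 to 27.5, 15.4 to 22.4 and 7.63 FPKM in the same order. In bulk organoids fewer cells of a type and less RNA per cell cannot be told apart, and the part of these shifts in the results on the 10 genes was not tested.

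Promoter windows of the 10 genes were read for the sequence that ATF4 and its partners are known to bind, the C/EBP-ATF element. Windows of RefSeq on GRCm38.p6, reaching from 250 bases before to 50 after each transcription start, were searched on both strands for TGATGNAA. The letters were found in 3.97% of 32851 windows of all genes and in those of 4 of the 10, *Trib3*, *Asns*, *Chac1* and *Slc7a11*. For the other genes, no match says only that these letters are not in the window searched. Below, the capitals mark the element and each sequence is written 5′ to 3′ on the strand of its gene. For *Trib3* the match lies 14 bases inside the transcript and only 30 bases are given.
Chac1, chr2:119351003-119351102, plus strand: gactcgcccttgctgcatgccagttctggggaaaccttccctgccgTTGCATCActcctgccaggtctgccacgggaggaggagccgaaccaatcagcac
Trib3, chr2:152344028-152344057, minus strand: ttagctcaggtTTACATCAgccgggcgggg
Slc7a11, chr3:50443614-50443725, minus strand: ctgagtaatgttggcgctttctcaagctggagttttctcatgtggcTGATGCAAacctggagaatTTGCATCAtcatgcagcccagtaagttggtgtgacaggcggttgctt
Asns, chr6:7693210-7693278, minus strand: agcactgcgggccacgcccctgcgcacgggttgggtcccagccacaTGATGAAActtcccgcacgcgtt
*Slc7a11* holds the element in both orientations, which start 66 and 47 bases before the transcription start, and its window belongs to a start inside the interval that RefSeq gives for the gene (chr3:50364936-50499087). *Chac1* holds it 193 bases and *Asns* 23 bases before the start. A match of letters is a description and not a binding site. Of the 4 genes with a match, *Asns* fell and *Slc7a11* rose with 4-OHT, as the values below show. *Trib3* and *Chac1* did not pass the threshold used below without rescaling.

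The cAMP element core TGACGT was found in 7.51% of the windows and, of the 10 genes, in *Ppp1r15a*, where matches on both strands overlap each other just before the start. It is shown because *Ppp1r15a* was among the genes that moved most.
Ppp1r15a, chr7:45526269-45526326, minus strand: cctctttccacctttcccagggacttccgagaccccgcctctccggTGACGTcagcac
The antioxidant element TGACNNNGC, to which NRF2 is known to bind, was in 12.4% of the windows and in those of *Asns*, *Sesn2* and *Ppp1r15a*. The AP-1 element TGANTCA was in 7.81% of the windows and in that of *Ddit3* alone among the 10. No match in the window of *Slc7a11* for the antioxidant element says only that these letters are not in that window.

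**Figure D1:**
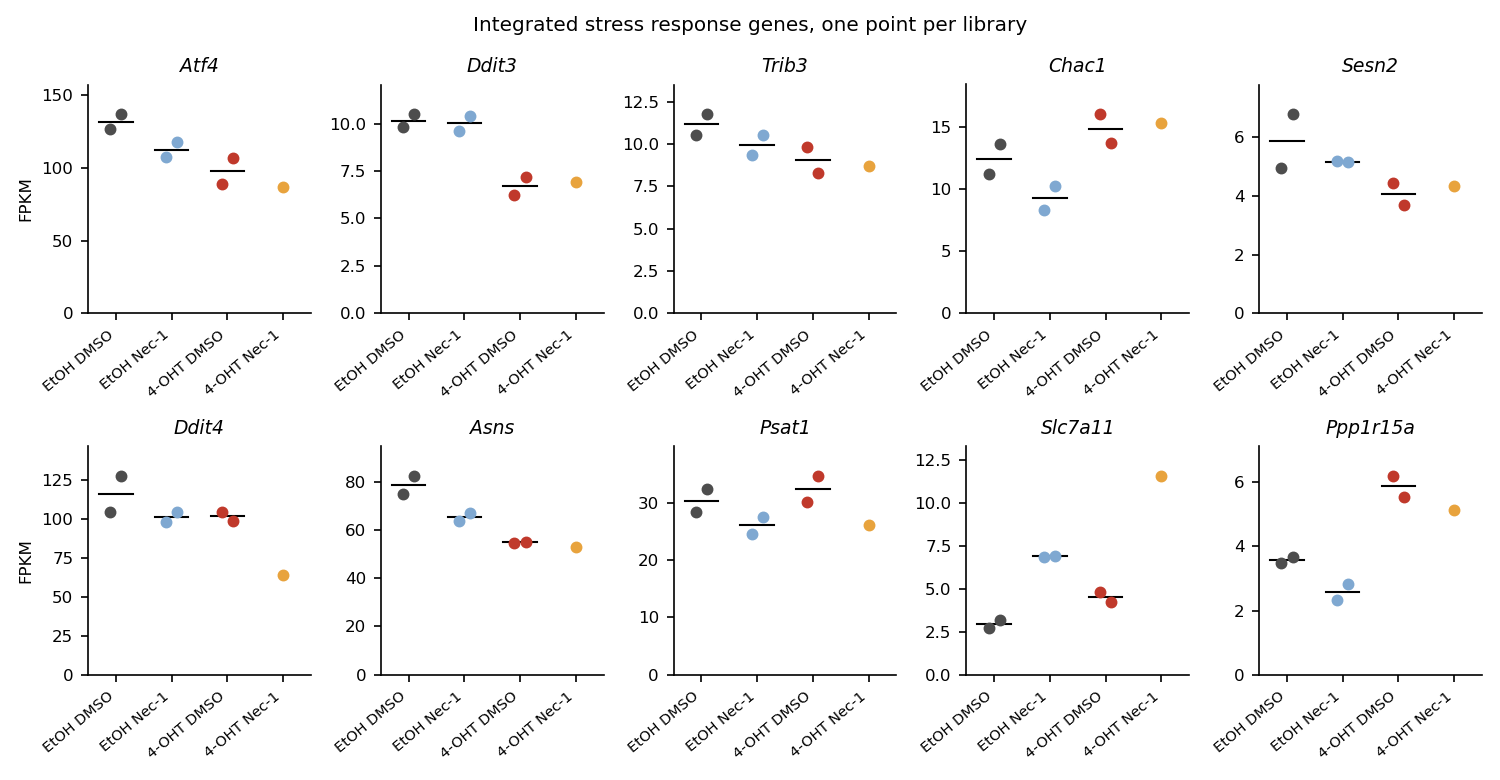
FPKM of the 10 integrated stress response genes (vertical axes, linear and starting at 0, a scale of its own per gene) in EtOH DMSO, EtOH Nec-1, 4-OHT DMSO (2 libraries each) and 4-OHT Nec-1 (1 library). Points are libraries and lines are means of 2. *Asns* and *Ddit3* sit lower in every library labelled 4-OHT than in every EtOH library, *Ppp1r15a* sits higher, and *Slc7a11* is highest in 4-OHT Nec-1 at 11.6 FPKM.

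In the control organoids (EtOH DMSO) the levels of the 10 genes spanned from 131.9 FPKM for *Atf4* to 2.94 for *Slc7a11*. *Atf4* was followed by *Ddit4* (116), *Asns* (78.7), *Psat1* (30.3), *Chac1* (12.4), *Trib3* (11.1), *Ddit3* (10.2), *Sesn2* (5.87) and *Ppp1r15a* (3.58). The libraries of *Atf4* and *Ddit4* overlapped, as did those of *Chac1* and *Trib3*, whereas the other neighbours in this order did not overlap. In 4-OHT Nec-1 the order had changed at its lower end, where *Slc7a11* stood above *Trib3*, *Ddit3*, *Ppp1r15a* and *Sesn2*. Across the 7 libraries *Slc7a11* varied most, 4.30-fold between its lowest and highest library, and *Trib3* least, 1.42-fold.

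The comparison of 4-OHT DMSO with EtOH DMSO asked how the pathway stood in organoids treated to lose *Mettl3*. Transcripts of the core regulators and of the amino acid enzyme *Asns* were lower, while *Ppp1r15a* and *Slc7a11* were higher. By limma on log2(FPKM + 1), with Benjamini-Hochberg adjustment over 12702 genes, 5 of the 10 passed a threshold of 0.05. Of all genes tested 41.2% passed, so a count of 5 in 10 is near that background. The 3 that fell were *Atf4*, *Ddit3* and *Asns*, against 16.7% of all genes that fell, and the 2 that rose were *Ppp1r15a* and *Slc7a11*, against 24.5% that rose. Both 4-OHT DMSO libraries lay above both EtOH DMSO libraries for 3 of the 10 (40.7% of all genes) and below them for 5 (30.8%). Where all libraries labelled 4-OHT are set against all EtOH libraries below, the share of all genes was not worked out. The median log2 difference was -0.23 over the 10 genes and 0.077 over all genes tested. Median centring of each library moved the median of all genes by -0.16 (log2). Of the 10 genes 2 were called higher and 6 lower after this centring. The split of all calls turned with it, from 3117 higher and 2120 lower to 2213 higher and 3187 lower, so directions near 0 depend on the scaling.

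**Figure D2:**
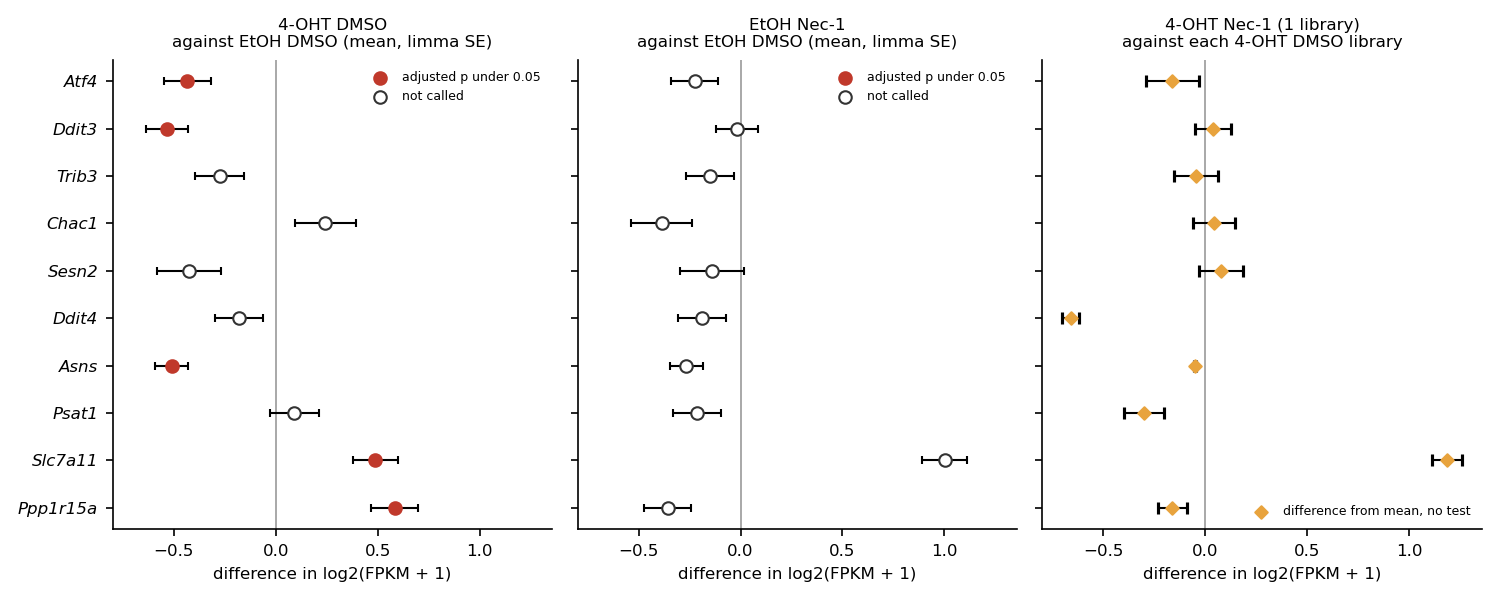
Differences of log2(FPKM + 1) for the 10 genes. Left and centre panels give limma estimates with SE for 4-OHT DMSO and for EtOH Nec-1 against the same 2 EtOH DMSO libraries, filled where the adjusted p is under 0.05, and the right panel gives 4-OHT Nec-1 against each of the 2 4-OHT DMSO libraries (bar ends) and their mean (diamonds), with no test. 5 genes are filled on the left and none in the centre, and *Slc7a11* lies farthest to the right in the centre and right panels, at 1.00 and 1.19.

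*Atf4* (chr15:80255184-80257545 on GRCm38.p6), the central transcription factor of the response, stood at 127 and 137 FPKM (EtOH DMSO), 108 and 118 (EtOH Nec-1), 88.8 and 107 (4-OHT DMSO) and 86.8 (4-OHT Nec-1). All 3 libraries labelled 4-OHT lay below all 4 EtOH libraries. Its level in 4-OHT DMSO was 0.74 times that in EtOH DMSO, a log2 difference of -0.43 ± 0.116 (SE, n = 2 against 2, limma adjusted p = 0.0319). This call was lost when any of 5 libraries was left out, with adjusted p = 0.0759 without EtOH DMSO 1, 0.122 without EtOH DMSO 2, 0.0654 without EtOH Nec-1 1, 0.0656 without EtOH Nec-1 2 and 0.0769 without 4-OHT DMSO 1. It was also lost without the filter on low values (0.0826) and with only the 4 libraries fitted (0.066).

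*Ddit3* (chr10:127290793-127296291), which encodes CHOP, a transcription factor linked to death under lasting ER stress, was measured at 9.81 and 10.5 FPKM (EtOH DMSO), 9.61 and 10.4 (EtOH Nec-1), 6.25 and 7.19 (4-OHT DMSO) and 6.90 (4-OHT Nec-1). The EtOH libraries of both inhibitor groups covered the same range and every library labelled 4-OHT was below it. It fell by 0.53 ± 0.102 on the log2 scale (adjusted p = 0.0117, and 0.0519 without EtOH DMSO 2). A further Ensembl ID carries the symbol *Ddit3*, which makes 11 IDs for the 10 symbols, and it stayed between 0.0008 and 0.015 FPKM and was not used.

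*Trib3* (chr2:152337425-152344060) encodes a pseudokinase that is induced by ATF4 and CHOP and restrains both. It was at 10.6 and 11.7 FPKM (EtOH DMSO), 9.35 and 10.5 (EtOH Nec-1), 9.82 and 8.30 (4-OHT DMSO) and 8.72 (4-OHT Nec-1). The 4-OHT DMSO libraries lay below both EtOH DMSO libraries, but within or below the range of EtOH Nec-1. Its log2 difference of -0.27 ± 0.119 did not pass (adjusted p = 0.119), though it did after median centring (0.0283).

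*Asns* (chr6:7675165-7693209) encodes asparagine synthetase and is among the best known targets of ATF4. It stood at 75.0 and 82.4 FPKM (EtOH DMSO), 63.7 and 66.9 (EtOH Nec-1), 54.7 and 55.1 (4-OHT DMSO) and 52.99 (4-OHT Nec-1). The groups separated completely, with EtOH DMSO highest, EtOH Nec-1 between and the libraries labelled 4-OHT lowest within a narrow range. It fell to 0.697 times its control level, by 0.51 ± 0.082 on the log2 scale (adjusted p = 0.00661). Its adjusted p stayed between 0.00249 and 0.026 over the 15 alternative fits, which include each library of the 3 pairs left out.

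*Psat1* (chr19:15905123-15925059), an enzyme of serine synthesis, was at 28.3 and 32.3 FPKM (EtOH DMSO), 24.5 and 27.6 (EtOH Nec-1), 30.1 and 34.7 (4-OHT DMSO) and 26.1 (4-OHT Nec-1). The 4-OHT DMSO and EtOH DMSO libraries overlapped, and the difference of 0.09 ± 0.118 (log2, adjusted p = 0.569) was within the spread and changed sign after median centring (-0.07).

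*Slc7a11* (chr3:50364936-50499087) encodes xCT, which imports cystine in exchange for glutamate and feeds glutathione synthesis. It was at 2.69 and 3.20 FPKM (EtOH DMSO), 6.88 and 6.88 (EtOH Nec-1), 4.81 and 4.25 (4-OHT DMSO) and 11.6 (4-OHT Nec-1). No groups overlapped, and both EtOH Nec-1 libraries stood above both 4-OHT DMSO libraries. In 4-OHT DMSO it rose by 0.49 ± 0.109 (log2, adjusted p = 0.0186) to 1.54 times the control level. The call was lost without EtOH DMSO 1 (0.0661), without 4-OHT DMSO 1 (0.0658), with upper quartile scaling (0.0527) and with only the 4 libraries (0.0529).

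*Chac1* (chr2:119351242-119354326), a late target of the pathway, encodes an enzyme that breaks down glutathione. It was at 11.2 and 13.6 FPKM (EtOH DMSO), 8.28 and 10.3 (EtOH Nec-1), 16.0 and 13.7 (4-OHT DMSO) and 15.3 (4-OHT Nec-1). All 3 libraries labelled 4-OHT lay above all 4 EtOH libraries, by a narrow margin over EtOH DMSO 2. The log2 difference of 0.24 ± 0.15 did not pass (adjusted p = 0.242).

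*Sesn2* (chr4:132492804-132510456) and *Ddit4* (chr10:59949675-59951770, REDD1) both encode inhibitors of the growth kinase complex mTORC1. *Sesn2* was at 4.95 and 6.79 FPKM (EtOH DMSO), 5.21 and 5.15 (EtOH Nec-1), 4.46 and 3.70 (4-OHT DMSO) and 4.33 (4-OHT Nec-1). Every library labelled 4-OHT was below every EtOH library, yet the 2 EtOH DMSO libraries were far apart and the difference of -0.43 ± 0.158 did not pass (adjusted p = 0.0807, and 0.0373 without EtOH DMSO 1). *Ddit4* was at 104 and 128 FPKM (EtOH DMSO), 98.0 and 104 (EtOH Nec-1), 105 and 99.0 (4-OHT DMSO) and 64.1 (4-OHT Nec-1). The 3 groups of 2 libraries overlapped, the 4-OHT Nec-1 library stood apart below them, and the difference with 4-OHT alone was -0.18 ± 0.117 (adjusted p = 0.267). After median centring both *Sesn2* and *Ddit4* were called lower with 4-OHT.

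*Ppp1r15a* (chr7:45522917-45526268), which encodes the stress-induced phosphatase subunit GADD34, was at 3.49 and 3.68 FPKM (EtOH DMSO), 2.33 and 2.84 (EtOH Nec-1), 6.20 and 5.54 (4-OHT DMSO) and 5.13 (4-OHT Nec-1). Again all 3 libraries labelled 4-OHT were above all 4 EtOH libraries, and EtOH Nec-1 was lowest. It rose by 0.58 ± 0.116 (log2, adjusted p = 0.0129) to 1.64 times the control level. Without EtOH DMSO 1 the adjusted p was 0.0571. The 4 genes with a TGATGNAA match, *Trib3*, *Chac1*, *Slc7a11* and *Asns*, had log2 differences of -0.27, 0.24, 0.49 and -0.51. Those of *Trib3* and *Chac1* did not pass without rescaling.

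The 4 eIF2 kinases stand upstream of all 10 genes. *Eif2ak2*, the double-stranded RNA sensor PKR, was at 10.2 and 10.9 FPKM (EtOH DMSO), 10.4 and 10.5 (EtOH Nec-1), 27.6 and 29.5 (4-OHT DMSO) and 16.4 (4-OHT Nec-1). It rose by 1.36 ± 0.082 with 4-OHT (log2, adjusted p = 0.000496), more than any of the 10 genes, and the 4-OHT Nec-1 library lay between the groups. *Eif2ak3*, the ER kinase PERK, was at 3.16 and 3.58, 3.11 and 2.70, 6.82 and 5.89, and 5.96 FPKM in the same order and rose by 0.75 ± 0.119 (adjusted p = 0.00636). The haem-sensing kinase *Eif2ak1* (8.003 FPKM without and 8.10 with 4-OHT, both in DMSO, adjusted p = 0.908) and the amino acid sensor *Eif2ak4* (2.11 and 2.12 FPKM, adjusted p = 0.995) had differences of 0.01 and 0.00. After either rescaling of the libraries 2 of the 4 kinases were again called higher and 0 lower. These are mRNA levels and carry no information on kinase activity.

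**Figure D3:**
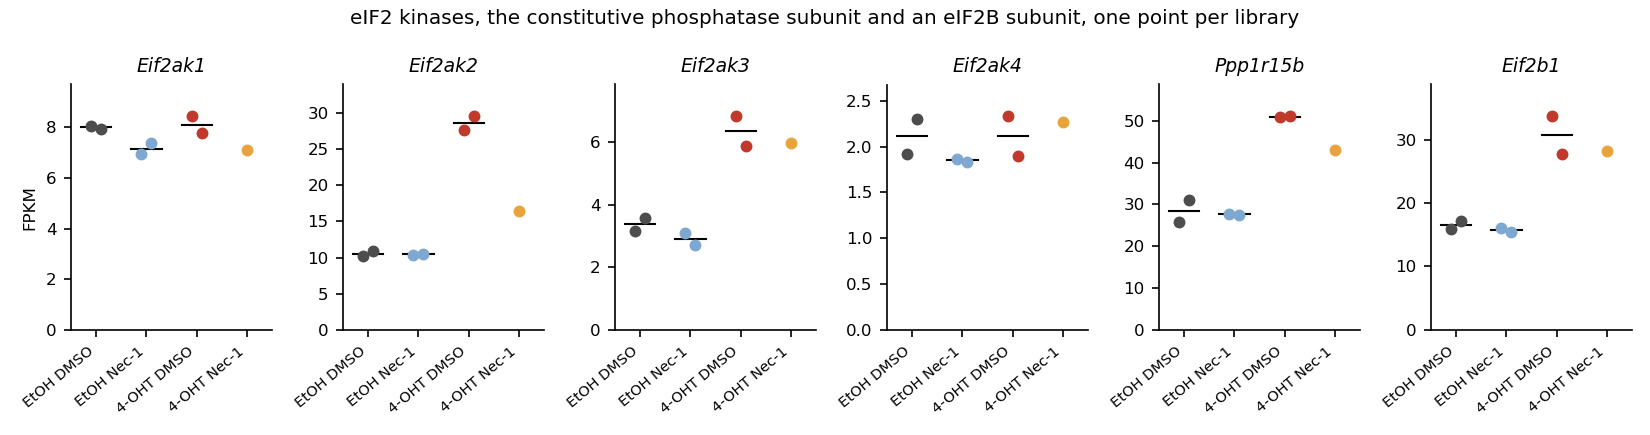
FPKM (linear vertical axes starting at 0, a scale of its own per gene) of the 4 eIF2 kinases, of *Ppp1r15b* and of *Eif2b1* in the 4 groups, with points for libraries and lines for means of 2. *Eif2ak2* stands at 27.6 and 29.5 (4-OHT DMSO) and at 16.4 (4-OHT Nec-1), while the EtOH DMSO and 4-OHT DMSO libraries of *Eif2ak4* overlap.

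Among 9 genes of the eIF2 and eIF2B complexes and the constitutive phosphatase subunit *Ppp1r15b*, 3 rose and none fell, where 24.5% of all genes rose and 16.7% fell. The counts of the lists that follow stand against the same shares. *Eif2b1*, a subunit of the exchange factor that phosphorylated eIF2 blocks, went from 16.5 to 30.7 FPKM (0.85 ± 0.113, adjusted p = 0.00369). *Ppp1r15b* went from 28.5 to 51.0 FPKM (0.82 ± 0.102, adjusted p = 0.00303), so both genes for subunits that guide the phosphatase to eIF2 were higher, and *Eif2b2* rose by 0.48. After median centring 1 of the 9 was also lower. Of 7 tested bZIP partners and relatives of ATF4, 3 rose and none fell, namely *Jun* (1.34 ± 0.099), *Atf3* (0.76 ± 0.108) and *Nfe2l2* (0.34 ± 0.081), which encodes NRF2 and lost its call after median centring (adjusted p = 0.155), when 1 of the 7 was called lower.

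Downstream, the lists of ATF4 targets did not share a direction without rescaling. After median centring more genes were called lower than higher in each of these lists, as over all genes (2213 higher and 3187 lower). The counts were then 7 lower and 1 higher for amino acid synthesis, and 6 and 3 for the other targets of ATF4 and CHOP. Of 12 genes of amino acid synthesis and one-carbon metabolism 6 fell and 1 rose, with a median of -0.34. The largest fall was that of *Cth*, the cystathionine lyase that makes cysteine, from 56.2 to 20.5 FPKM (-1.41 ± 0.092, adjusted p = 0.000573), followed by the folate enzyme *Aldh1l2* (-1.13) and the alanine aminotransferase *Gpt2* (-0.67), whereas the aspartate aminotransferase *Got1* rose (1.07). Of 20 cytosolic aminoacyl-tRNA synthetases, which charge tRNAs with amino acids, 4 fell and 1 rose, so the share that fell was near the 16.7% of all genes and the share called was below 41.2%. *Hars* (0.65) and *Qars* (-0.55) differed most, and 10 fell after median centring. Of 7 amino acid transporters other than *Slc7a11* only the glutamine carrier *Slc1a5* passed (0.40, adjusted p = 0.0225, and 0.0671 after median centring, when 2 others were called lower).

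Of 12 other targets of ATF4 and CHOP 5 fell and 3 rose. The tRNA exporter *Xpot* (-0.84 ± 0.1), the ER degradation factor *Herpud1* (-0.82) and the ER oxidase *Ero1l* (-0.70) fell, and the secreted stress cytokine *Gdf15* rose (0.76 ± 0.112, adjusted p = 0.00504). ER chaperones and targets of IRE1 or ATF6 belong to the other arms of the unfolded protein response. Of the 16 tested, 9 rose, 2 fell and 5 did not pass, with *Pdia4* (1.01 ± 0.069), *Hspa5* (0.94 ± 0.282, adjusted p = 0.0458, and 0.0755 after median centring), *Dnajb11* (0.90) and *Creld2* (0.88) highest, while *Xbp1* and *Edem1* fell by 0.61 and 0.31. After median centring 6 rose and 3 fell. The summed level of the Paneth cell markers, a cell type rich in ER, rose in the same libraries as given above, and its part in the chaperone values was not tested.

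**Figure D4:**
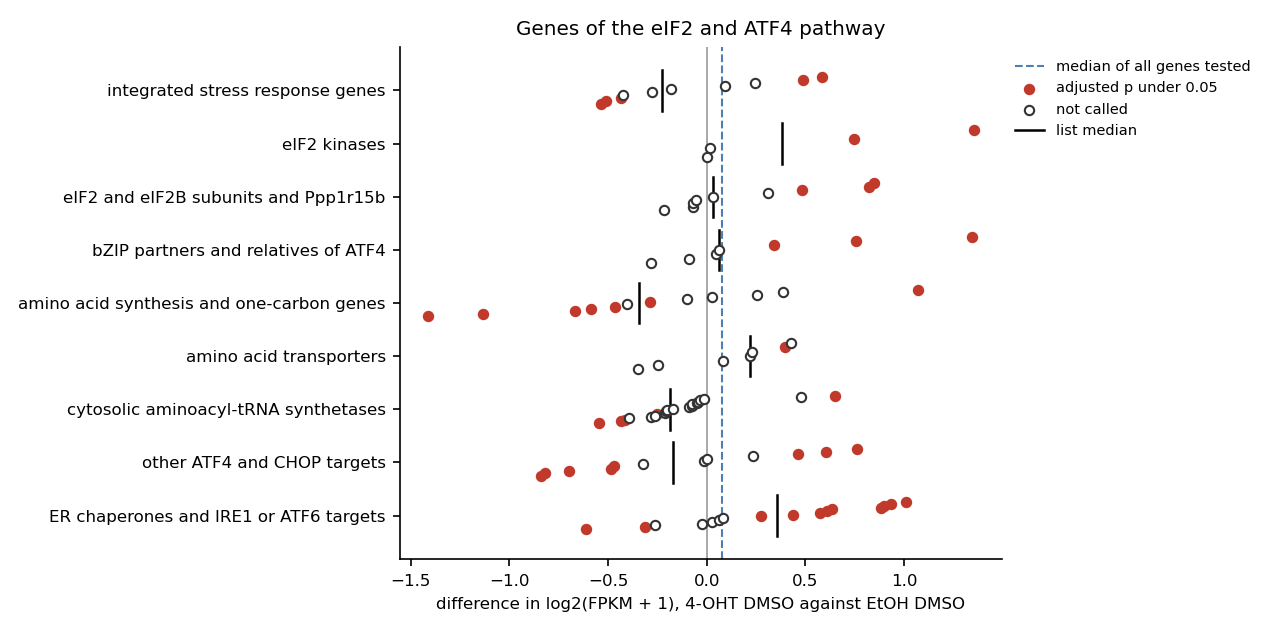
Differences of log2(FPKM + 1) between 4-OHT DMSO and EtOH DMSO (horizontal axis) for the genes of 9 lists, one point per gene, filled where the limma adjusted p is under 0.05. The solid bars are list medians and the dashed line is the median of all 12702 genes at 0.077. The 10 genes lie between -0.53 and 0.58, the amino acid synthesis genes reach down to -1.41, and the 2 called kinases lie at 0.75 and 1.36.

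Several of the 10 genes are also known targets of other regulators, and lists of those were read beside them. *Ddit4* and *Sesn2* respond to hypoxia, p53 or glucocorticoids in other settings. Of 10 hypoxia targets 6 fell and 1 rose with 4-OHT (median -0.69), and *Pdk1*, *Car9* and *Ankrd37* fell by 1.04, 1.03 and 1.01. Of 9 p53 targets 3 rose and 1 fell, led by *Mdm2* (0.65) and *Sesn1* (-0.55), a paralog of *Sesn2*, and 2 fell after median centring. Of 4 tested glucocorticoid receptor targets *Tsc22d3* and *Per1* fell by 0.79 and 0.62. Neither *Ddit4* nor *Sesn2* was itself called in this comparison with all libraries and no rescaling. After median centring both were among the 6 of the 10 genes called lower.

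The comparison of EtOH Nec-1 with EtOH DMSO asked what the inhibitor did in organoids that received no 4-OHT. *Slc7a11* was 2.34 times higher, and the other 9 genes were at 0.72 to 0.987 times their level in DMSO. Of the 10 genes 0 passed by limma, where 28 of 12702 genes or 0.22% did (0.173% higher and 0.0472% lower), and 4 of the 10 had an unadjusted p under 0.05, as did 1689 of all genes. limma without the mean-variance trend also called 0. The median log2 difference was -0.20 over the 10 genes and -0.094 over all genes. Both Nec-1 libraries lay below both DMSO libraries for 6 genes, *Atf4*, *Trib3*, *Asns*, *Chac1*, *Ppp1r15a* and *Psat1*, as they did for 39.1% of all genes tested. These comparisons share the EtOH DMSO libraries with those of 4-OHT above.

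The 4 genes with an unadjusted p under 0.05 were *Slc7a11*, *Asns*, *Ppp1r15a* and *Chac1*. *Slc7a11*, at 2.69 and 3.20 FPKM with DMSO and 6.88 in each Nec-1 library, had a log2 difference of 1.00 ± 0.109, and 0.9998% of all genes tested had a larger difference in either direction. Its adjusted p was 0.06 (unadjusted 0.000157), just outside the threshold. It passed after median centring (0.0313), with upper quartile scaling (0.0372), with only the 4 libraries (0.0489) and without either 4-OHT DMSO library (0.0405 and 0.0403), and it reached 0.452 without EtOH Nec-1 2. The differences were -0.27 ± 0.082 for *Asns*, -0.36 ± 0.116 for *Ppp1r15a* and -0.39 ± 0.15 for *Chac1*, with adjusted p = 0.308, 0.317 and 0.37. *Ddit3* differed by -0.02 ± 0.102 (adjusted p = 0.966), and its sign turned after median centring (0.081). Over 130 tested genes of the other lists, cell type markers left out but targets of NRF2, hypoxia, p53 and other regulators included, 0 were called and 28 had an unadjusted p under 0.05, 7 of them NRF2 targets. Of all 12702 genes tested, 1689 had an unadjusted p under 0.05.

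The single 4-OHT Nec-1 library was set beside the 2 4-OHT DMSO libraries to see where the genes stood when the inhibitor was added to 4-OHT. With 1 library there is no replicate check and no test. *Slc7a11* was at 11.6 FPKM against 4.81 and 4.25, 1.11 and 1.26 log2 units above them, and 0.764% of 12036 genes lay at least 1 log2 unit above both. *Ddit4* was at 64.1 FPKM against 105 and 99.0, that is -0.70 and -0.62 log2 units from them, and 8.88% of the genes had a larger difference in either direction. It did not reach 1 log2 unit below both, as 1.21% of the genes did. *Psat1* (-0.30 from their mean), *Atf4* (-0.16), *Ppp1r15a* (-0.16) and *Asns* (-0.05) also lay below both libraries, as 50.6% of all genes did. After median centring *Asns* differed by 0.06 in the other direction. *Ddit3*, *Trib3*, *Chac1* and *Sesn2* lay between the 2 libraries. The median difference of the 10 genes was -0.05 and that of all genes -0.089, and the former became 0.067 after median centring. The genes called with 4-OHT, *Atf4*, *Ddit3*, *Asns*, *Ppp1r15a* and *Slc7a11*, were at 86.8, 6.90, 52.99, 5.13 and 11.6 FPKM in the library with Nec-1. *Atf4*, *Ddit3* and *Asns* lay below all EtOH libraries there, and *Ppp1r15a* and *Slc7a11* above them. For *Slc7a11* both EtOH Nec-1 libraries also lay above both 4-OHT DMSO libraries. Against the EtOH Nec-1 libraries alone, 49.9% of all genes lay above both and 38.8% below both, so such a position is common.

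Set against the 2 EtOH Nec-1 libraries, the 4-OHT Nec-1 library was higher for *Ppp1r15a* (0.78 log2 units from their mean), *Slc7a11* (0.67) and *Chac1* (0.67) and lower for *Ddit4* (-0.65), *Ddit3* (-0.48), *Atf4* (-0.37), *Asns* (-0.30), *Sesn2* (-0.21) and *Trib3* (-0.17), each outside both libraries. Of all 11746 genes compared 49.9% lay above both and 38.8% below both, 4.24% and 1.94% by at least 1 log2 unit, which none of the 10 genes reached. *Psat1* lay between them. The Nec-1 difference with 4-OHT minus that without it was -0.47 for *Ddit4* (-0.66 against -0.19) and 0.43 for *Chac1* (0.04 against -0.39), and for the other 8 genes it lay between -0.087 and 0.22. It was 0.18 for *Slc7a11*, whose difference was 1.19 with and 1.00 without 4-OHT. None of these differences was tested, since 1 of the 4 groups is a single library.

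*Slc7a11* is a known target of NRF2, the regulator of glutathione and antioxidant genes, as well as of ATF4, so the NRF2 targets were read library by library. Of 9 NRF2 targets 4 fell with 4-OHT, in contrast to *Slc7a11*, which rose. They were *Nqo1*, a quinone reductase (from 178 to 63.0 FPKM, -1.49 ± 0.095, adjusted p = 0.000544), *Gclc*, the catalytic subunit for glutathione synthesis (-1.03 ± 0.121), *Me1* (-0.73) and *Gsr* (-0.56). With Nec-1 alone 7 of the 9 lay above both DMSO libraries and 1 below, where 10.5% of all genes lay above and 39.1% below. None passed by limma, 7 had an unadjusted p under 0.05, and 1 passed with upper quartile scaling (*Nqo1*, 0.029). With Nec-1 added to 4-OHT 8 of the 9 lay above both 4-OHT DMSO libraries, as 24.5% of all genes did, and the ninth, *Hmox1*, lay between them. *Nqo1* itself was at 176 and 180 FPKM (EtOH DMSO), 322 and 318 (EtOH Nec-1), 58.3 and 67.6 (4-OHT DMSO) and 220.4 (4-OHT Nec-1). *Slc7a11* and *Nqo1* were thus both higher with Nec-1 and lay on opposite sides of their controls with 4-OHT alone.

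**Figure D5:**
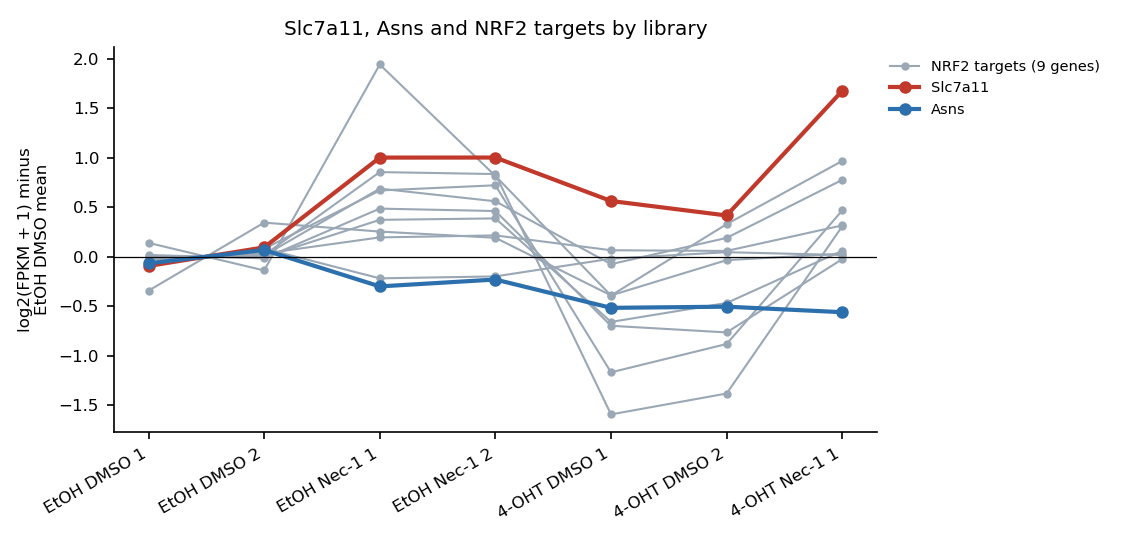
Difference of log2(FPKM + 1) from the EtOH DMSO mean (vertical axis) in each of the 7 libraries for *Slc7a11*, *Asns* and 9 NRF2 targets, where lines join the values of a gene and libraries have no order within a group. *Slc7a11* lies above 0 in all 5 libraries of the other groups and *Asns* below 0 in all 5, whereas 4 NRF2 targets that were called lower with 4-OHT lie above 0 with Nec-1 alone.

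Over the 7 libraries 2 of the 10 genes spanned at least 1 log2 unit, and for these the genes with the nearest profile were sought, by the root mean square difference of log2(FPKM + 1) after each profile was centred. Nearest to *Ppp1r15a* were *Dhx8* (0.041), *Nolc1* (0.05) and *Tmco3* (0.055), and nearest to *Slc7a11* were *Gm15502* (0.16), *Ces2c* (0.169) and *Cyp3a13* (0.201). The neighbours of *Slc7a11* were therefore more distant from it than those of *Ppp1r15a*. *Cyp3a13*, a cytochrome P450, was at 50.1 and 46.2 FPKM (EtOH DMSO) and at 127 (4-OHT Nec-1), its highest library. It was picked for a profile like that of *Slc7a11*, so sharing its highest library is not a separate result.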

How the data were processed

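The authors extracted total RNA from organoids, sequenced it on an Illumina instrument and deposited FPKM, 1 value per Ensembl gene and library. The submitters' processing notes name HISAT2 2.1.0, StringTie 1.3.3b and mm10, without saying which step used which. Whether counting used strand is not given in the sources used here. In 1 table, 2 further columns repeated other libraries to within 5e-06 FPKM, and the number of unmapped columns was 0. The 2 *Atf3* samples were not analysed here.

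limma 3.58.1 (R 4.3.3) with a mean-variance trend was fitted to log2(FPKM + 1) of 12702 genes that reached 1 FPKM in 2 or more libraries, with 1 mean per group over all 7 libraries (3 residual degrees of freedom) and Benjamini-Hochberg adjustment over all genes. The pseudocount understates changes of low genes. The fit was tested on simulated data. Median centring set the medians of log2(FPKM + 1) equal between libraries. Python 3.11.15, pandas 2.3.3 and scipy 1.17.1 made the other values. Symbols came from a list of gene names by Ensembl ID, with RefSeq synonyms where a symbol was not found. Promoter windows and gene positions came from RefSeq (GRCm38.p6). Fragment counts are unknown, and low values did not give the relative depth (at most 12.9% of low genes shared 1 ratio between libraries), so precision rests on the libraries. Across genes, log2(FPKM + 1) of replicates correlated with r of 0.965 to 0.989.

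Alternatives were no trend, 2 rescalings, other filters and pseudocounts, only 4 libraries, the replicate number as a block, each library left out, and the criterion of an unadjusted p under 0.05 with an absolute log2 fold change of at least 1. The 10 genes and all lists were chosen with earlier results of these data known. Named are the 10 genes, *Mettl3*, the 4 eIF2 kinases, up to 4 called genes with the largest change per list, and 3 nearest profiles of each gene that spans at least 1 log2 unit. *Xbp1*, *Edem1*, *Hmox1* and *Itgam* were named after their values were seen.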

Additional observations from a re-analysis of the deposited data

How the results depend on the processing

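With 4-OHT, 5 of the 10 genes were called, 8 after median centring, 3 with only the 4 libraries and 0 by the fold criterion. After median centring 2213 of all genes were called higher and 3187 lower. The number of all genes called with only the 4 libraries is not given here. Of all 12702 genes, 1364 were called by the fold criterion, against 5237 by the limma adjusted p under 0.05. The median of the 10 genes, -0.23, became -0.384 after either rescaling, 0.13 being the SD of that median between replicates. *Psat1* turned to -0.065 after median centring, to -0.069 with upper quartile scaling and ranged from -0.0069 to 0.19 with a library left out. With Nec-1 alone 28 genes were called, 43 with upper quartile scaling, 8 without the filter, 79 with only the 4 libraries, 90 by the fold criterion and 9 to 79 with a library left out. The count of 0 among the 10 became 1 (*Slc7a11*) after median centring, with upper quartile scaling, with only the 4 libraries and by the fold criterion, and was 0 to 1 with a library left out. *Ddit3* turned to 0.081 after median centring and 0.0804 with upper quartile scaling, with -0.071 to 0.035 on leaving out a library, and *Sesn2* ranged from -0.33 to 0.054. With 1 library against 1, all 10 genes lie outside by construction, against 6. The median of 4-OHT Nec-1 against EtOH Nec-1 went from -0.19 to -0.332 after median centring. The causes of these shifts were not tested, but fewer libraries leave fewer residual degrees of freedom. Replicate numbers did not pair the libraries (r of deviations -0.04, 0.006 and -0.012). With the replicate block 4697 and 19 genes and 5 and 0 of the 10 were called. Depth is unknown, and 2 libraries a group limit what could be called.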

Other observations

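Immediate early genes and the paralogs of the 10 genes gave further values. Of 7 tested immediate early genes 4 rose with 4-OHT, *Fos* (1.70 ± 0.133), *Egr1* (1.42), *Junb* (1.16) and *Ier3* (0.71), and none fell. Of 7 tested paralogs 4 rose and 1 fell. *Trib1*, the relative of *Trib3* that marks C/EBP factors for degradation, went from 7.53 to 38.02 FPKM (2.19 ± 0.103, adjusted p = 0.000351), while *Trib3* itself was at 11.1 and 9.06 FPKM. *Chac2*, the relative of *Chac1*, went from 10.8 to 21.7 FPKM (0.95 ± 0.115), and *Ddit4l*, the relative of *Ddit4*, from 0.697 to 2.36 FPKM (0.98 ± 0.149). *Sesn1* fell by 0.55. After either rescaling of the libraries 4 immediate early genes and 4 paralogs were again called higher, with 0 and 2 lower.

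Markers of secretory lineages also differed with 4-OHT. All 6 Paneth cell markers rose (median 1.52), as did 4 of 5 goblet and 3 of 3 enteroendocrine markers, whereas 3 of 4 stem cell markers and 3 of 4 tested enterocyte markers fell and 1 enterocyte marker rose. Of 6 epithelial markers 4 rose and none fell, against 3 and 1 after median centring. Tuft, fibroblast and endothelial markers did not pass the filter on low values. Of 5 immune markers 2 were tested and 1 rose, *Cd68*, from 0.774 and 2.01 to 5.69 and 7.72 FPKM. The other, *Itgam*, went from 1.96 and 1.19 to 0.315 and 0.917 FPKM. It was not called, but was called lower after median centring. After median centring 2 of 5 goblet markers were called higher.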
